A study of Mus musculus with 44 samples.

Results

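The genes described here encode 9 receptors through which cells of the osteoblast lineage receive growth factors and hormones. They are the receptors of platelet-derived growth factor (Pdgfra, Pdgfrb), fibroblast growth factor (Fgfr1, Fgfr2, Fgfr3), epidermal growth factor (Egfr), transforming growth factor beta (Tgfbr1, Tgfbr2) and parathyroid hormone (Pth1r). Every probe set whose only gene symbol was 1 of these names was taken, which gave 24 of 36701 probe sets, 16 on array type A, 3 on type B and 5 on type C. Of the 24, 17 passed a filter on low signal in the sorted samples and were tested, and these covered all 9 genes. On array A alone, which also held the unsorted samples, 11 of 16 were tested and covered 7 genes.

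The series profiled RNA of mouse calvarial osteoblasts, cells grown out of the skull cap of 7-day newborn mice, on 3 types of Affymetrix array (A, B and C) that carry different probe sets. The transgene was pOBCol3.6GFP in the day 7 cultures, whose medium received no additions. The day 17 cultures held pOBCol2.3GFP instead, and from day 7 their medium contained Asc acid and bGP, the usual short names of ascorbic acid and beta-glycerophosphate. Both transgenes place green fluorescent protein (GFP) under a fragment of a type I collagen promoter, the longer of which is known to be active earlier in the lineage than the shorter, and cells were sorted into GFP-positive and GFP-negative fractions beside unsorted cells. Each of the 6 groups held 3 experiments (Exp99, Exp101 and Exp103 at day 7; Exp100, Exp105 and Exp106 at day 17), or 18 RNA samples on 44 arrays. All cultures were grown in the same serum-containing medium for the first 7 days. Since day, transgene and additions changed together, their parts in a difference between days cannot be told apart. A GFP-positive fraction holds the cells in which its promoter fragment was active, so the fractions of the 2 days need not hold the same kind of cell. Since only the experiment names set the replicates apart, the spread that the p-values rest on may be technical.

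The PDGF, FGF and EGF receptors are receptor tyrosine kinases, which pair when a ligand binds and pass the signal through adaptors to the MAP kinase and PI3 kinase routes. The TGF-beta receptors are serine/threonine kinases that work as a pair: Tgfbr2 binds the ligand and activates Tgfbr1, which phosphorylates Smad2 and Smad3. Pth1r is a G protein-coupled receptor that raises cyclic AMP in osteoblasts and is a known marker of their differentiation, while PDGF, EGF and TGF-beta are best known in bone for acting on proliferating precursors.

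Among the 9 receptors, Pth1r rose and Egfr, Tgfbr2 and Pdgfrb fell from day 7 to day 17 in GFP-positive cells. Pth1r was 11.2-fold higher at day 17, and the falls were 3.48-fold for Tgfbr2, 4.23-fold for Pdgfrb, and 4.33-fold and 4.90-fold for the 2 brighter Egfr probe sets. The third tested Egfr probe set, 101840_at, fell too, to a signal low on the array that makes its fold uncertain. At day 17 Egfr and Tgfbr2 were also lower in GFP-positive than in GFP-negative cells, by 2.92-fold for Tgfbr2 and by 6.59-fold and 8.88-fold for the 2 brighter Egfr probe sets, with 101840_at called as well. No receptor passed the test between the fractions at day 7, nor between the days in GFP-negative cells. Differences are on the log2 scale of the normalised intensity plus 32, which understates the change of dim probe sets. A call is an adjusted p under 0.05 in limma's moderated test, with Benjamini-Hochberg adjustment over all probe sets tested. In RNA of cell populations like these, fewer cells that carry a transcript and less of it per cell cannot be told apart.

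From day 7 to day 17 in GFP-positive cells, 6 of the 17 receptor probe sets were called, against 4.85% of the 22099 probe sets tested. Of these, 5 were lower, where 3.19% of all tested probe sets were called lower, and 1 was higher, where 1.66% were. At day 17, 4 of 17 were called between the fractions, against 1.28% of all, and all 4 were lower in GFP-positive cells, where 0.991% of all were called lower. These 4 belong to only Egfr and Tgfbr2. For the difference of the fraction effects between the days, 2 of 17 were called, against 0.222% of all, both lower, against 0.19%. With 1 probe set per gene, taken from array A first, 7 genes were tested. Of these 7, 3 were called between the days in GFP-positive cells and 1 between the fractions at day 17. For the difference of the fraction effects 0 of the 7 were called by limma. Tgfbr1 and Tgfbr2 are not among these 7, as their array A probe sets were not tested. Between the fractions at day 7, 0 of 17 were called by limma (0% of all). Of these 17, 0 had an unadjusted p under 0.05, beside 396 of the 22099. From day 7 to day 17 in GFP-negative cells 0 of 17 were called by limma (0.434% of all). There 3 of the 17 had an unadjusted p under 0.05, beside 2443 of the 22099. The median difference of the 17 between the fractions at day 17 was -0.51, beside -0.01 over all probe sets tested.

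**Figure D1:**
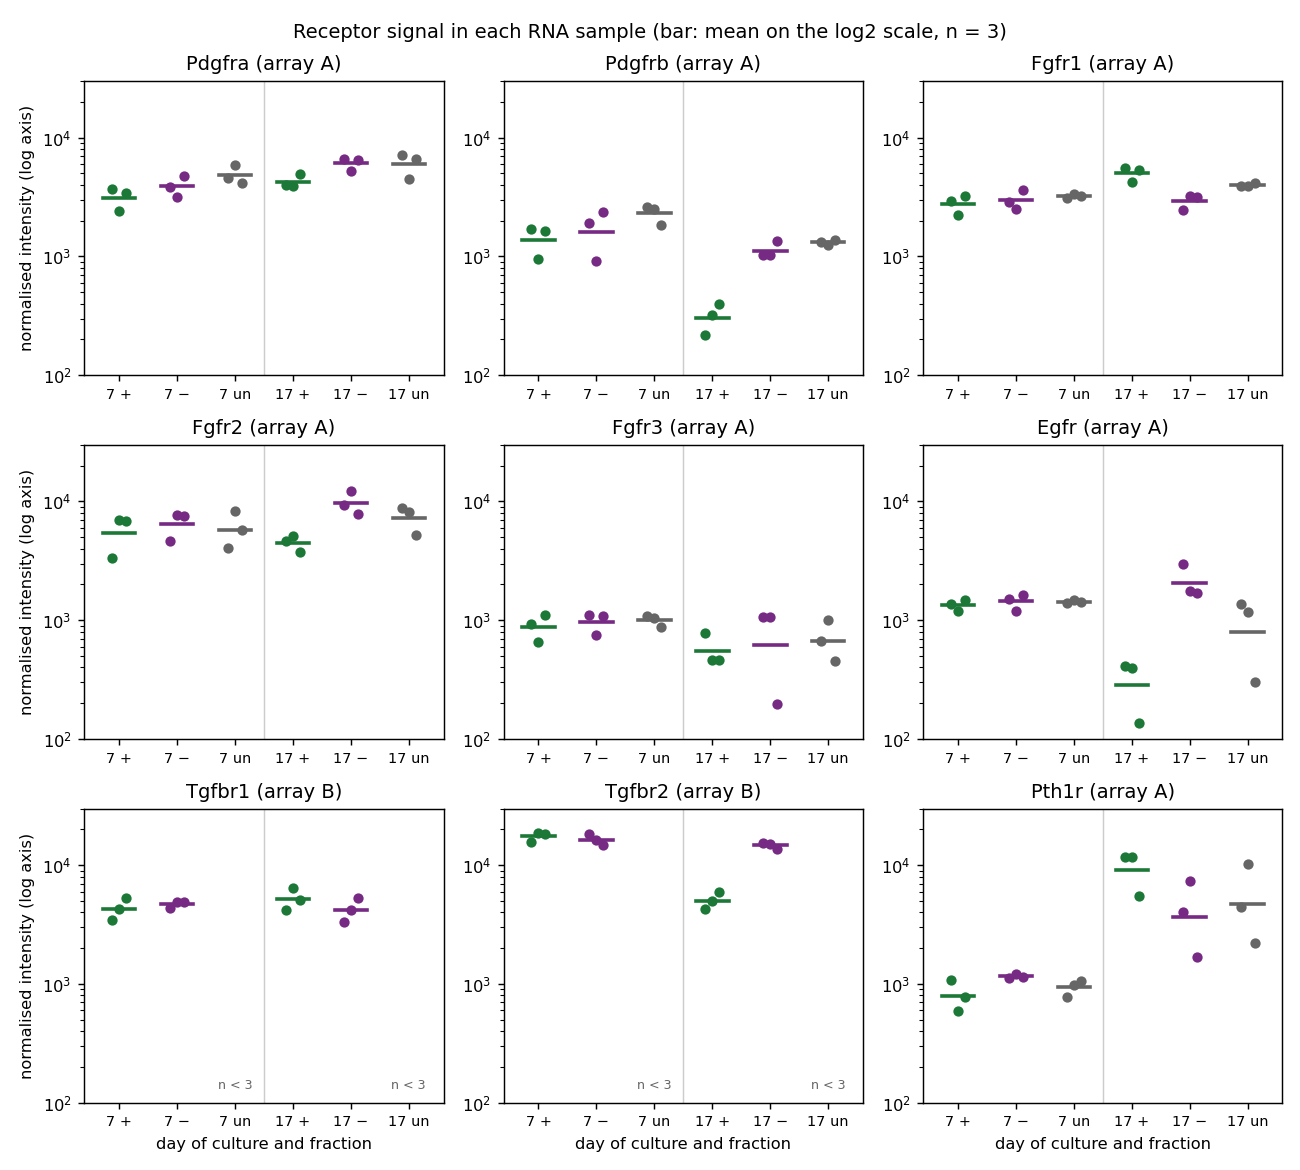
Normalised intensity (log axis) of the brightest tested probe set of each receptor on array A, or on array B for Tgfbr1 and Tgfbr2, with 1 point per RNA sample by day (7 or 17) and fraction (+ GFP-positive, − GFP-negative, un unsorted) and a bar at the mean on the log2 scale (n = 3). The GFP-positive samples of day 17 lie below all other samples of Pdgfrb and Tgfbr2 and above all others of Fgfr1, and every day 17 sample of Pth1r lies above those of day 7.

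The promoters of Egfr and Tgfbr2, which fell together, and of Pth1r, which rose, are shown for comparison. RefSeq windows (GRCm38.p6) of 300 bases, 250 before to 50 after an annotated start, were used for 7 of the 9 receptors. No window was used for Fgfr1 or for Pdgfrb, which fell as well. Each was searched on both strands for the GC box GGGCGG, a binding site of Sp family factors, the RUNX core TGTGGT and the TATA box TATAAA, which 35.7%, 16.8% and 13.6% of 32851 such windows hold. Capitals mark the GC boxes, on either strand. The window of Egfr lies at chr11:16751953-16752252 on the + strand and held 1 GC box. That of Tgfbr2 lies at chr9:116175314-116175613 on the - strand and held 0. Pth1r has 3 annotated starts on the - strand, at chr9:110747096-110747395, chr9:110743637-110743936 and chr9:110742561-110742860, with 0, 1 and 4 GC boxes, and the 1 probe set of Pth1r does not say which start was used. None of these 5 windows held the RUNX core or the TATA box.
Egfr: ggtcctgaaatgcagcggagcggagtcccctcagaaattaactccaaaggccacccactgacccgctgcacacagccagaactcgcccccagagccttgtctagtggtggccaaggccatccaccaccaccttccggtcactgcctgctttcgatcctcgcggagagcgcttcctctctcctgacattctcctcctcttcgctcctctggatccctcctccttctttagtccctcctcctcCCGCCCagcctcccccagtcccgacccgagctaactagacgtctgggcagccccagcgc
Tgfbr2: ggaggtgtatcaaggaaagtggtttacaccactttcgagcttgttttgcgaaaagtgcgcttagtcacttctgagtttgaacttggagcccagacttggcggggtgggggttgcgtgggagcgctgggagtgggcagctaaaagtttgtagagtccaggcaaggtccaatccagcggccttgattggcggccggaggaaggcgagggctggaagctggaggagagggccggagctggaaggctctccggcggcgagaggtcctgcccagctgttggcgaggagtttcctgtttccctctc
Pth1r, start 1: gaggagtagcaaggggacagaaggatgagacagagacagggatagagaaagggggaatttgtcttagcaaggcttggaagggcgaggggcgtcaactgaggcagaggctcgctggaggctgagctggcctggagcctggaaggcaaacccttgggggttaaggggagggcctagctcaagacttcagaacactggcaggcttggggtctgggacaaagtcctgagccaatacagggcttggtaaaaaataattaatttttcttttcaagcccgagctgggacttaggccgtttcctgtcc
Pth1r, start 2: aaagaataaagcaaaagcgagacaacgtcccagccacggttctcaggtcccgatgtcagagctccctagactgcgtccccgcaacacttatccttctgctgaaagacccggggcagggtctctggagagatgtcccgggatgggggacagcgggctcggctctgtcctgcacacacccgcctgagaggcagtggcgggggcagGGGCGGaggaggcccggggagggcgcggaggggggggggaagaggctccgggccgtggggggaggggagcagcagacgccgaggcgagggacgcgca
Pth1r, start 3: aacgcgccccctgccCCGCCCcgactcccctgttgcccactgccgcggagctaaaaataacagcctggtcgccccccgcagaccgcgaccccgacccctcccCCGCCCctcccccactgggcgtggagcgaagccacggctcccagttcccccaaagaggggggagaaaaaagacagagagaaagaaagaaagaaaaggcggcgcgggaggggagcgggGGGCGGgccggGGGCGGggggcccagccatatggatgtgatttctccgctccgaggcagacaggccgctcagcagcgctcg

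Before the receptors are taken in turn, 3 facts on the samples bear on all of them. Exp106, a day 17 experiment, stood apart: on arrays A, B and C its sorted samples correlated with the other sorted samples at a mean of 0.839, 0.772 and 0.771, beside 0.943, 0.900 and 0.814 among those others, so its samples are named beside the values. Of 6 tested osteoblast markers, 3 rose from day 7 to day 17 in GFP-positive cells (Alpl, Ibsp and Dmp1), 2 rose in GFP-negative cells (Alpl and Ibsp), and 0 of 6 were called by limma between the fractions at day 17, where their median difference was 0.60 and 3 had an unadjusted p under 0.05. The GFP-negative fraction of day 17 thus carried osteoblast transcripts too. Markers of other cell types moved in the same comparisons, and their values follow those of the receptors.

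Pdgfra, the receptor that binds PDGF-A chains, passed no test. Its probe set 95079_at gave 3694, 2415 and 3414 in GFP-positive and 3877, 3144 and 4797 in GFP-negative cells of day 7 (Exp99, Exp101, Exp103). By day 17 the values were 3974, 3945 and 4919.9 in GFP-positive and 6674, 5196 and 6439 in GFP-negative cells (Exp100, Exp105, Exp106). The 2 fractions overlapped at day 7 and did not overlap at day 17, where every experiment was lower in the GFP-positive cells. The difference at day 17 was -0.51 ± 0.24 (SE; 95% interval -1.04 to 0.02, adjusted p = 0.506), which did not pass the test. From day 7 to day 17 the GFP-positive cells differed by 0.44 ± 0.24 (adjusted p = 0.354) and the GFP-negative cells by 0.64 ± 0.24 (adjusted p = 0.348). In unsorted cells it gave 4546, 5884 and 4179 at day 7 and 7140.2, 4516 and 6596 at day 17, and these overlapped. The second tested probe set, 160332_at, ranged from 205 to 1401 over the 18 samples, its groups overlapped in every pair of neighbours in level, and it was called in no comparison. The third, 161202_r_at, was too dim to be tested.

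Pdgfrb, the receptor of PDGF-B chains and a marker of pericytes and mesenchymal precursors, was low in GFP-positive cells of day 17 alone among the 6 groups. Its 1 probe set, 160867_at, gave 1696, 957 and 1641 in GFP-positive and 1901, 907 and 2352 in GFP-negative cells of day 7. The day 17 samples gave 219.7, 319 and 395 in GFP-positive and 1030.4, 1019 and 1340.2 in GFP-negative cells. All 3 GFP-positive samples of day 17 lay below every other sample, and the other 5 groups overlapped with their neighbours in level. The fall from day 7 to day 17 in GFP-positive cells was -2.08 ± 0.40, or 4.23-fold (adjusted p = 0.0117). Without the GFP-positive sample of Exp99 or of Exp103 its adjusted p was 0.0629 and 0.0574, with values of -1.94 and -1.96, and a fit of only the groups compared gave 0.0620. In GFP-negative cells the same comparison gave -0.50 ± 0.40 (adjusted p = 0.690).

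At day 17 the fraction difference of Pdgfrb was -1.78 ± 0.40 (adjusted p = 0.0579), just outside the threshold, and within Exp100, Exp105 and Exp106 it was -2.08, -1.58 and -1.68. With experiment as a fixed or random block, which uses that pairing, the adjusted p was 0.0154 and 0.00503. Without the GFP-positive sample of Exp106 it was 0.0352. The difference between the 2 fraction effects, -1.58 ± 0.57, was not called (adjusted p = 0.608). Unsorted cells gave 2632, 2529.8 and 1838 at day 7 and 1316, 1242 and 1377 at day 17. All unsorted samples of day 17 lay below those of day 7, yet that difference of -0.80 ± 0.33 was not called (adjusted p = 0.170). Against the mean of the sorted fractions, unsorted cells of day 17 were higher by 1.11 ± 0.28 (adjusted p = 0.0603). This value was called with a fixed or random block (adjusted p = 0.01 and 0.0052) and without Exp106, at 1.23 (adjusted p = 0.0342).

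Fgfr1, an FGF receptor of mesenchymal cells, was highest in GFP-positive cells of day 17 without passing the test. Probe set 97509_f_at, whose suffix marks probes that can match several similar sequences, gave 2934, 2239.5 and 3217 in GFP-positive and 2879.5, 2493 and 3627 in GFP-negative cells of day 7. Its day 17 values were 5537, 4229.5 and 5368 in GFP-positive and 2456, 3257 and 3145 in GFP-negative cells, and 3893, 3949.7 and 4118 in unsorted cells, which had given 3098, 3386 and 3232 at day 7. Each GFP-positive sample of day 17 lay above every sample of the other 5 groups. The difference from day 7 was 0.85 ± 0.24 (1.80-fold, adjusted p = 0.0688) and that from the GFP-negative fraction 0.77 ± 0.24 (1.70-fold, adjusted p = 0.197). The first was called where the filter stood at the 75th percentile (adjusted p = 0.0465), and the second with a random block for experiment (adjusted p = 0.0402), though not with a fixed one (adjusted p = 0.0848). The 2 probe sets on array C, 139425_f_at and 139426_r_at, gave 0.34 ± 0.29 and 0.19 ± 0.32 between the fractions at day 17, and their groups overlapped.

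Fgfr2, an FGF receptor known for its part in skull suture development, passed no test in the fit without a block. Probe set 93090_at gave 3346, 7018 and 6864 in GFP-positive and 4652, 7656 and 7499 in GFP-negative cells of day 7. At day 17 it gave 4678, 5082 and 3774 in GFP-positive and 9346, 12282 and 7891 in GFP-negative cells. The fractions overlapped at day 7 and were apart at day 17, when every experiment was lower in GFP-positive cells, with differences of -0.99, -1.27 and -1.06. This difference of -1.11 ± 0.32 (2.15-fold) had an adjusted p of 0.154, and of 0.00912 with a fixed and 0.0155 with a random block. In unsorted cells 93090_at gave 4019, 8318 and 5735 at day 7 and 8758, 8210.4 and 5198 at day 17, which overlapped. Its difference from day 7 was -0.28 ± 0.32 for GFP-positive cells and 0.58 ± 0.32 for GFP-negative ones, neither of them called. Of the other probe sets of Fgfr2, 93091_s_at gave 2676, 2139.7 and 548 in GFP-positive against 2929, 4218 and 2169 in GFP-negative cells of day 17. That was -1.01 ± 0.49 with overlapping groups, and -0.32 without the GFP-positive sample of Exp106, the lowest of the 6. In the same comparison 162171_f_at gave -0.43 ± 0.48, and -1.02 without Exp106. On array C, 135404_at gave 2069, 2783 and 571 in GFP-positive against 1893, 1183 and 1394 in GFP-negative cells. Its difference was 0.03 ± 0.58, and 0.70 without the GFP-positive sample of Exp106, which was again the lowest. Of these 3, none was called, and the fifth, 168840_at, was too dim to be tested.

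Fgfr3, best known as the FGF receptor of growth plate cartilage, did not pass any test. Probe set 162253_i_at gave 920.2, 657 and 1109 in GFP-positive and 1114, 747 and 1083 in GFP-negative cells of day 7. By day 17 the values were 778, 460.5 and 465 in GFP-positive and 1055, 1068 and 197 in GFP-negative cells. Unsorted cells gave 1094, 1047 and 882 at day 7 and 674, 994 and 449 at day 17. All 6 groups overlapped with their neighbours in level, and the lowest value was the GFP-negative sample of Exp106. From day 7 to day 17 the difference was -0.64 ± 0.56 for GFP-positive cells and -0.62 ± 0.56 for GFP-negative ones. Its fraction difference at day 17 was -0.15 (95% interval -1.37 to 1.06). Without Exp106 it was -0.79 and still not called (adjusted p = 0.326). Within the experiments it was -0.42, -1.16 and 1.12, so Exp106 went against the other two. The second probe set, 160919_r_at, stayed below 202 in every sample and was not tested.

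Egfr, the receptor of EGF and its relatives, showed the largest difference between the fractions of all receptors here. Probe set 111476_at on array B gave 1853, 2099 and 1243 in GFP-positive and 2597, 1703 and 1019 in GFP-negative cells of day 7. The day 17 samples gave 389.9, 395 and 211 in GFP-positive and 3829, 2625 and 2951 in GFP-negative cells. The fractions overlapped at day 7, while at day 17 the GFP-positive samples were below and the GFP-negative samples above all samples of day 7. The fraction difference at day 17 was -3.15 ± 0.38, or 8.88-fold (adjusted p = 0.00202), lower in 3 of 3 experiments. Its fall from day 7 in GFP-positive cells was -2.29 ± 0.38, or 4.90-fold (adjusted p = 0.00545), and the difference of 0.89 ± 0.38 in GFP-negative cells was not called (adjusted p = 0.415).

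On array A, probe set 101842_g_at of Egfr gave 1377, 1189.8 and 1485 in GFP-positive and 1522, 1201 and 1630.4 in GFP-negative cells of day 7. Its day 17 values were 415, 399 and 136 in GFP-positive, 2979, 1754 and 1685 in GFP-negative and 1378, 1171 and 303 in unsorted cells. As on array B, the 2 fractions overlapped at day 7 and were apart at day 17. The fraction difference at day 17 was -2.72 ± 0.40 (6.59-fold, adjusted p = 0.00491), and the fall from day 7 in GFP-positive cells -2.11 ± 0.40 (4.33-fold, adjusted p = 0.0105). Unsorted cells of day 7 gave 1393, 1471 and 1423, which overlapped with both fractions of that day, and the difference between the days in unsorted cells was -0.82 ± 0.46 (adjusted p = 0.305), with Exp106 lowest. Probe set 101840_at gave 565, 522 and 679 in GFP-positive cells of day 7 and 64, 58 and 67 in those of day 17, where its signal lay between percentiles 13.3 and 15.0 of the array. GFP-negative cells of day 17 gave 674, 568 and 329.7 there, a difference of -2.49 ± 0.53 (adjusted p = 0.0444). Its fall from day 7 in GFP-positive cells was -2.70 ± 0.53 (adjusted p = 0.0130).

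With samples left out, the differences of 101840_at kept about the same size while some adjusted p-values rose above 0.05. Its fraction difference at day 17 lay between -2.29 and -2.78 without any 1 of the 6 samples of that day, and had an adjusted p of 0.213 and 0.153 without the GFP-negative sample of Exp100 or Exp105, and of 0.0998 and 0.108 without the GFP-positive one. Its fall from day 7 was -2.72 and -2.60 without the GFP-positive sample of Exp99 or Exp103, with an adjusted p of 0.0577 and 0.0637. The calls of 111476_at and 101842_g_at in these 2 comparisons held with each single sample left out. A fit of only the groups compared, with fewer samples to estimate the spread, ended the calls between the fractions of day 17 for all 3 (adjusted p = 0.343 for 101840_at, 0.144 for 101842_g_at and 0.0541 for 111476_at) and, between the days, those of 101840_at and 101842_g_at (0.0939 and 0.0848). The 2 untested Egfr probe sets differed: 101841_at gave 36, 137 and 117 in GFP-positive and 819, 596 and 208 in GFP-negative cells of day 17, which were apart, while 170123_at gave 151, 215 and 505 against 257, 219 and 208, which overlapped.

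The test of the difference between the days' fraction effects was passed by Egfr 111476_at, at -3.18 ± 0.54 (adjusted p = 0.0424). The other tested Egfr probe sets gave -2.62 ± 0.56 (101842_g_at, adjusted p = 0.121) and -2.81 ± 0.75 (101840_at, adjusted p = 0.286). That of 101842_g_at was called with a random block (adjusted p = 0.0145), without Exp106 (0.0346) and without Exp106 with a fixed block (0.0485). Unsorted cells of day 17 were higher than the mean of the sorted fractions for 101840_at, by 1.62 ± 0.31 (adjusted p = 0.0205), the 1 call among 11 tested receptor probe sets, against 1.6% of 7455 in all and 1.49% called higher. That call was lost without the unsorted sample of Exp100, Exp105 or Exp106 (adjusted p = 0.0997, 0.0766 and 0.0674). The other array A probe set of Egfr, 101842_g_at, gave 0.02 ± 0.40 in the same comparison (adjusted p = 0.994), so the probe sets of Egfr disagreed there. At day 7, 0 of 11 receptor probe sets were called by limma between unsorted and sorted cells (0% of all). Of these 11, 2 had an unadjusted p under 0.05, beside 59 of the 7455.

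**Figure D2:**
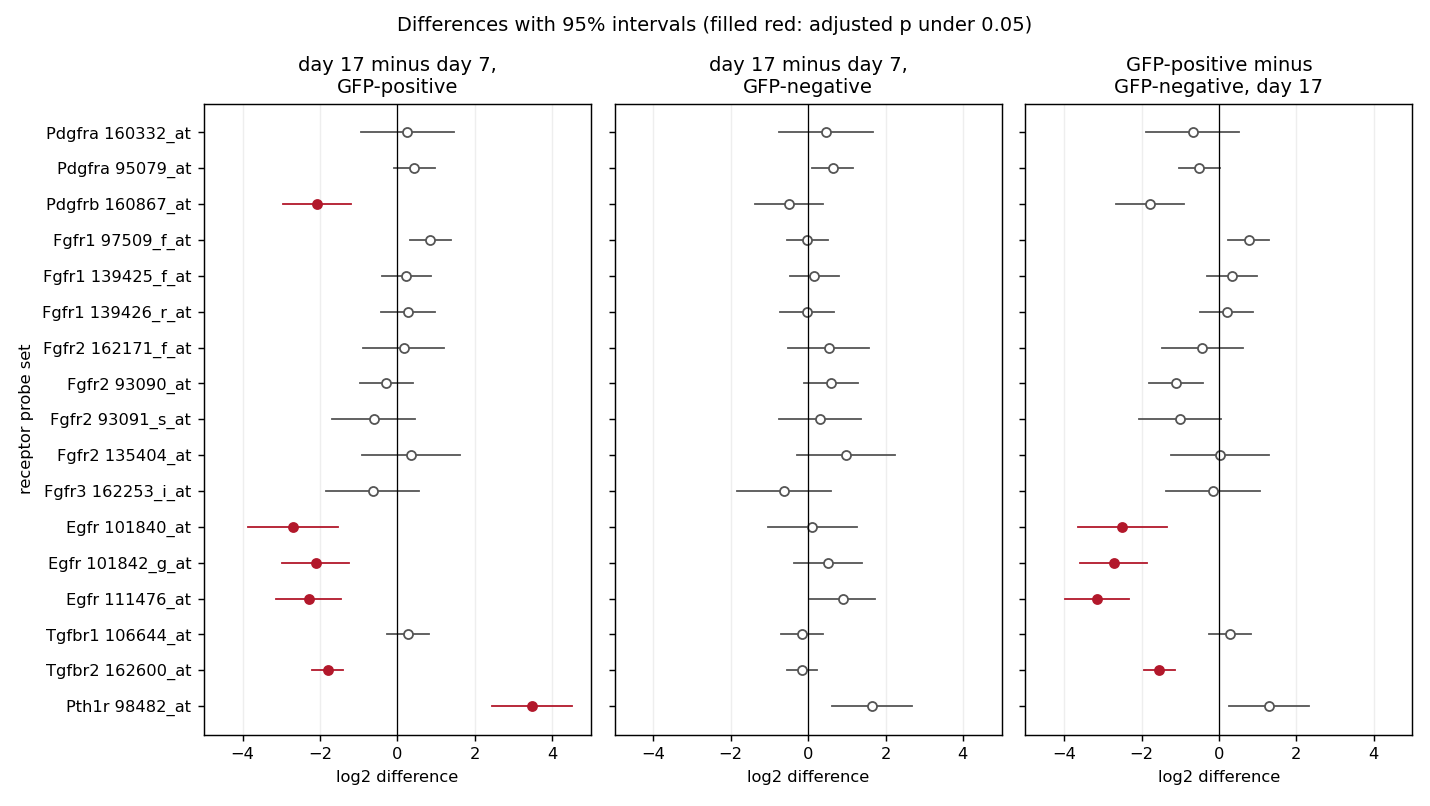
Log2 difference with its 95% interval for the 17 tested receptor probe sets, from day 7 to day 17 in either fraction, and between the fractions at day 17, with calls in filled red. The 3 Egfr probe sets, Tgfbr2 and Pdgfrb lie below 0 and Pth1r above 0 in GFP-positive cells, and no point is filled for GFP-negative cells.

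Tgfbr1, the type I TGF-beta receptor, did not pass any test. Probe set 106644_at on array B gave 3433, 4244 and 5244 in GFP-positive and 4336, 4865 and 4902 in GFP-negative cells of day 7. At day 17 it gave 4188, 6369.7 and 5132 in GFP-positive and 3326, 4228 and 5337 in GFP-negative cells. All 4 groups overlapped. The fraction difference at day 17 was 0.29 (95% interval -0.26 to 0.83), and the difference between the days in GFP-positive cells 0.28 (-0.27 to 0.82). Its array A probe set, 92427_at, stayed between 11 and 350.5 in the sorted and unsorted samples and was not tested.

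Tgfbr2, the type II receptor that binds the ligand, fell in GFP-positive cells from day 7 to day 17. Probe set 162600_at on array B gave 15789.9, 18698 and 18318 in GFP-positive and 18318, 16264 and 14835 in GFP-negative cells of day 7. By day 17 the values were 4308, 4972 and 5899.9 in GFP-positive and 15347, 15076 and 13715 in GFP-negative cells. The GFP-positive samples of day 17 were below all others, and the GFP-negative samples of that day overlapped with those of day 7. The fall from day 7 to day 17 in GFP-positive cells was -1.80 ± 0.18, or 3.48-fold (adjusted p = 0.000358). The fraction difference at day 17 was -1.54 ± 0.18, or 2.92-fold (adjusted p = 0.00187), and -1.83, -1.59 and -1.21 within Exp100, Exp105 and Exp106. At day 7 that difference was 0.10 ± 0.18, and in GFP-negative cells the days differed by -0.16 ± 0.18, neither of them called. A fit of only the groups compared left the fraction difference at day 17 outside the threshold (adjusted p = 0.0752).

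The difference between the days' fraction effects was -1.64 ± 0.26 for Tgfbr2 (adjusted p = 0.0385). The same call was lost for Egfr 111476_at without any single one of the 12 samples other than the GFP-positive sample of Exp106 (adjusted p between 0.0661 and 0.152), with values between -2.84 and -3.50. For Tgfbr2 the call was lost without any single sample other than the 2 of Exp106 (adjusted p between 0.0780 and 0.128), with values between -1.53 and -1.72. Without both samples of Exp106 the 2 probe sets were called. The array A probe set of Tgfbr2, 94702_at, stayed below 117 in every sample and was not tested, so the result for this gene rests on 1 probe set.

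**Figure D3:**
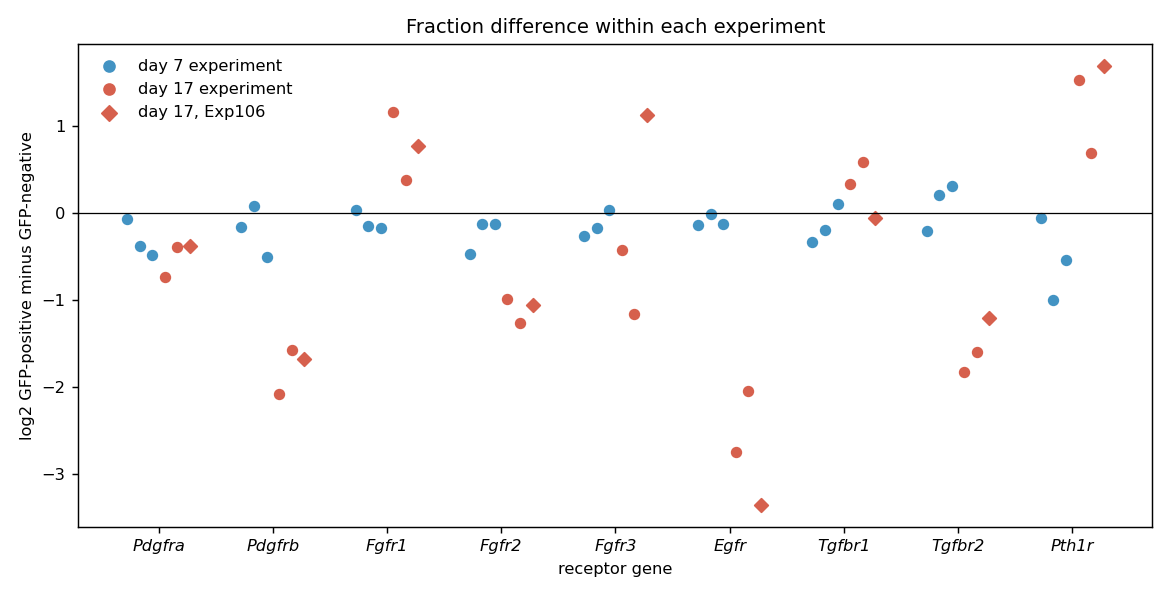
Log2 difference of GFP-positive minus GFP-negative cells within each experiment, for the same probe set of each receptor as in the plot of levels by sample, with day 7 in blue, day 17 in red and Exp106 as a diamond. The 3 day 17 points lie below -1 for Pdgfrb, Egfr and Tgfbr2 and above 0 for Fgfr1 and Pth1r.

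Pth1r, the receptor of parathyroid hormone and its related peptide, was the 1 receptor that rose. Its probe set 98482_at gave 1083, 586 and 773 in GFP-positive and 1126, 1205 and 1137 in GFP-negative cells of day 7. The day 17 samples gave 11751, 11816 and 5537 in GFP-positive, 4046, 7316 and 1697 in GFP-negative and 4476, 10174 and 2226 in unsorted cells. All 9 samples of day 17 lay above the 9 of day 7, those of Exp106 lowest in each fraction, and the 3 kinds of cell overlapped at day 17. The rise in GFP-positive cells was 3.48 ± 0.47, or 11.2-fold (adjusted p = 0.00165). In unsorted cells, which gave 773, 989 and 1064 at day 7, it was 2.28 ± 0.52, or 4.87-fold (adjusted p = 0.0183). That was 1 of 11 tested receptor probe sets on array A, against 5.71% of all called and 3.04% called higher. The unsorted call was lost without the sample of Exp99, Exp101, Exp103 or Exp105 (adjusted p = 0.0749, 0.0560, 0.0587 and 0.0592), and in a fit of only the groups compared (0.0633).

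At day 7 the GFP-positive samples of Pth1r lay below the GFP-negative ones without overlap, and the difference of -0.53 ± 0.47 did not pass the test. In GFP-negative cells Pth1r was higher at day 17 by 1.65 ± 0.47, or 3.14-fold, which was not called (adjusted p = 0.201). Without Exp106 this value was 2.20 ± 0.30 and was called (adjusted p = 0.00861). Between the fractions at day 17 the difference was 1.30 ± 0.47 (adjusted p = 0.297), higher in 3 of 3 experiments, by 1.53, 0.69 and 1.69. It was called with a fixed block for experiment (adjusted p = 0.0488) and not with a random one (adjusted p = 0.0544). The difference of the fraction effects between the days, 1.83 ± 0.67, was not called (adjusted p = 0.628).

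With experiment as a block, 7 of the 17 receptor probe sets were called between the fractions at day 17. These were, with the fixed block, the 4 above with Pdgfrb, Fgfr2 93090_at and Pth1r (3.21% of all probe sets called), and with the random block Fgfr1 97509_f_at in place of Pth1r (4.57% of all).

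Markers of other cell types moved in the same comparisons. Smooth muscle and pericyte markers stand for a cell kind known for Pdgfrb. From day 7 to day 17 in GFP-positive cells, 3 of 6 tested genes fell (Acta2, Tagln and Cnn1). Of the 6, 4 lay below 0, so the list did not move as 1. The summed level of its 9 genes on array A was between 53173 and 59067 at day 7 and between 13445 and 13849 at day 17. Of these 9, 4 at day 7 and 3 at day 17 were never above the array median in GFP-positive cells. Between the fractions of day 17, 2 of these 6 (Acta2 and Tagln) were lower in GFP-positive than in GFP-negative cells, whose sums were 31646 to 48189. Fibroblast and progenitor markers were lower there for 6 of 11 tested genes (Sfrp2, Cxcl12, Aspn, Mgp, Mfap5 and Fmod), with sums of 103614 to 132522 in GFP-positive against 192620 to 244492 in GFP-negative cells. From day 7 to day 17 these markers fell for 3 of 11 in GFP-positive cells (median -1.14; Mfap5, Mgp and Thy1) and rose for 4 of 11 in GFP-negative cells (median 1.20; Sfrp2, Fmod, Dcn and Lum). Their day 7 sums were 111286 to 115889 in GFP-positive cells, within the range of day 17, and 94526 to 116492 in GFP-negative cells. The summed level thus did not fall in GFP-positive cells, although 9 of the 11 tested genes were lower at day 17. Macrophage markers rose for 7 of 12 tested genes from day 7 to day 17 in GFP-positive cells, with sums of 6105 to 6997 at day 7 and 22184 to 84654 at day 17. Their sums in GFP-negative cells were 13803 to 36825 at day 7 and 69466 to 124665 at day 17. Between the fractions 0 of these 12 were called by limma, yet all 12 were lower in GFP-positive cells on both days. Their median difference was -2.36 at day 7 and -1.56 at day 17. On each day 8 of the 12 had an unadjusted p under 0.05, beside 396 (day 7) and 2334 (day 17) of 22099 probe sets. In unsorted cells, where Pth1r was called, they rose for 10 of 13, to sums of 169645 to 221787 from 18882 to 41678 at day 7. The osteoblast markers Alpl, Ibsp and Dmp1 rose there as well, 3 of 6. Chondrocyte markers rose for 2 of 6 (Col9a1 and Col11a1) in GFP-positive cells, skeletal muscle markers fell for 3 of 8 in unsorted cells and 1 of 8 in GFP-negative cells, and all 8 endothelial markers were too dim to be tested. No marker of these lists was at the floor on all arrays of a group, and the part of these cell types in the receptor results was not tested.

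The ligands and partners of the receptors were taken from lists of their pathways, 1 probe set per gene. Pdgfa, a ligand of Pdgfra, rose and was the 1 of 3 tested PDGF ligands that was called. It gave 2000.0 to 2295 in GFP-positive cells of day 7, 5586 to 7084 in those of day 17 and 2364 to 3214 in GFP-negative cells of day 17, which did not overlap. Its differences were 1.59 ± 0.22 from day 7 (adjusted p = 0.0018) and 1.28 ± 0.22 between the fractions (adjusted p = 0.0135), and unsorted cells rose by 0.96 ± 0.18 (adjusted p = 0.0059). Fgf7, a ligand of the epithelial form of Fgfr2, was the 1 of 8 FGF ligands bright enough to test. It fell by 1.86 on the log2 scale from day 7 in GFP-positive cells (adjusted p = 0.0228) and was lower than in GFP-negative cells of day 17, at -2.23 ± 0.41 (adjusted p = 0.0198).

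Hbegf, the 1 tested ligand of Egfr, gave -1.17 from day 7 to day 17 in GFP-positive cells and was not called. Of 14 tested adaptors and feedback genes of receptor tyrosine kinases, 2 fell in that comparison: Errfi1, an inhibitor of Egfr, at -1.20 ± 0.21 (adjusted p = 0.00728) and the adaptor Shc1 at -0.86 ± 0.20 (adjusted p = 0.0268). Their median was -0.74, beside -0.06 over all probe sets. Dusp6, a phosphatase of the MAP kinase route, was the 1 of 9 called in unsorted against sorted cells of day 17, at 1.36 ± 0.29 (adjusted p = 0.0327).

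Among 9 tested transducers and targets of TGF-beta, 1 rose and 3 fell from day 7 to day 17 in GFP-positive cells. The one that rose was Bambi, a decoy receptor without a kinase, at 3.61 ± 0.73 (adjusted p = 0.0151), with 1207 to 1566 at day 7 and 4823 to 37731 at day 17. The falls were those of Tgfbi, an extracellular matrix protein named for its induction by TGF-beta (-2.43 ± 0.52, adjusted p = 0.0205), Tgif1, a repressor that binds Smads (-2.15 ± 0.35, adjusted p = 0.00434), and Ccn2, a secreted matrix protein (-1.94 ± 0.42, adjusted p = 0.0218), named after its value was seen. Between the fractions of day 17 the 1 call of this list was Postn, also a matrix protein, at -1.15 ± 0.25 (adjusted p = 0.0481). Of 6 tested TGF-beta ligands and latency proteins 0 were called by limma in the same 2 comparisons, with an unadjusted p under 0.05 for 1 between the days and 3 between the fractions. Their medians were -0.59 and -0.60.

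Related receptors were mostly not called: 1 of 13 fell and 1 rose from day 7 to day 17 in GFP-positive cells. These were the activin receptors Acvr2a (-2.14 ± 0.30, adjusted p = 0.00195) and Acvr2b (1.62 ± 0.34, adjusted p = 0.0194), which went opposite ways. In unsorted cells they gave -1.25 ± 0.24 and 1.91 ± 0.38 (adjusted p = 0.0064 and 0.00794), beside Csf1r, the macrophage growth factor receptor, at 2.88 ± 0.50 (adjusted p = 0.00342). Of 11 tested genes of the PTH and cyclic AMP response, 0 were called by limma in any of the 5 comparisons of sorted cells (at most 2 had an unadjusted p under 0.05 in any of them), with a median of 0.23 from day 7 to day 17 in GFP-positive cells. Of 2 PTH receptor ligands, 1 had a probe set under its name alone, which was too dim to be tested, and the other had none.

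**Figure D4:**
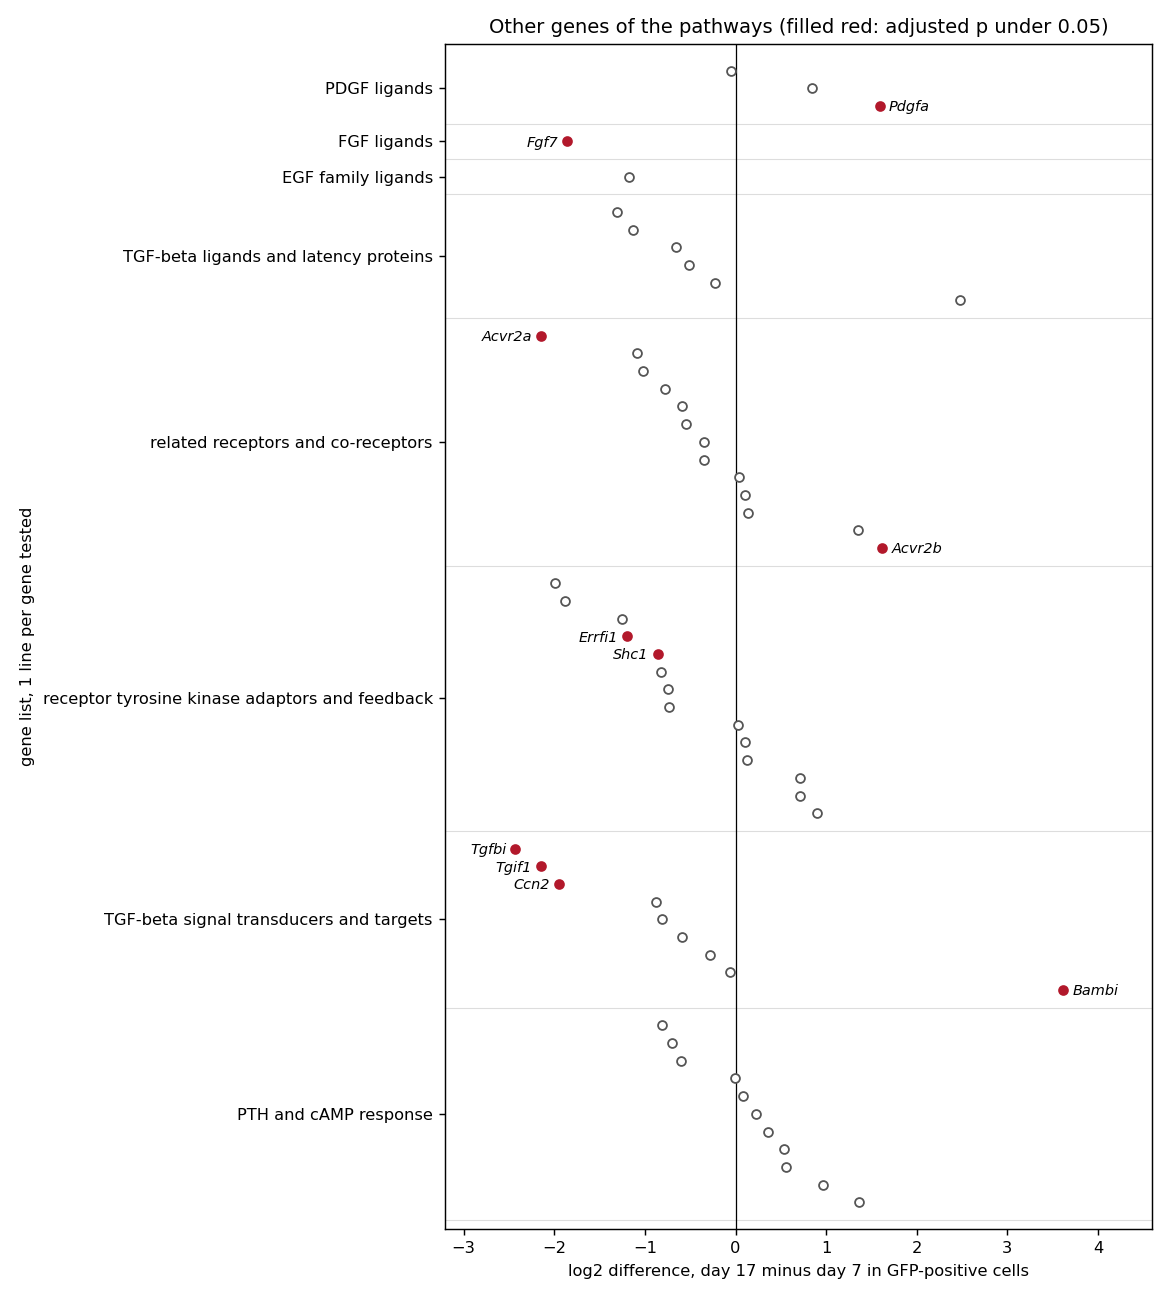
Log2 difference from day 7 to day 17 in GFP-positive cells for each tested gene of 8 pathway lists, 1 point per gene, with calls in filled red and named. Points left of 0 were lower at day 17: Pdgfa, Acvr2b and Bambi are the called genes to the right, and 7 called genes lie to the left.

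The genes most like each receptor over the 12 sorted samples were found by Pearson's correlation of the normalised log2 values, and are given as a description, since samples share groups and experiments. Pth1r was most like Tmem119 (0.98), Tmed3 (0.98) and Mef2c (0.97). Egfr 101842_g_at was most like Meg3 (0.97), Mgp (0.97) and Crebl2 (0.96), and Pdgfrb most like Thbd (0.98), Fbln2 (0.97) and F2r (0.96). For Pdgfra these were Zfp362 (0.93), Cd93 (0.92) and Mylk (0.90), for Fgfr1 Pcif1 (0.97), Plcg2 (0.95) and Calm4 (0.92), and for Fgfr2 Mest (0.93), Cdkn1c (0.90) and Enah (0.90). Fgfr3 was most like Pitpnm2 (0.94), Rab14 (0.93) and Thap4 (0.93), which fell to 0.78, 0.71 and 0.76 without Exp106. Without Exp106 the correlations of the other 6 receptors with the genes named lay between 0.87 and 0.98. Tgfbr1 and Tgfbr2 have no entry, as their array A probe sets were not tested.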

How the data were processed

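RNA of 18 samples was measured on 18 A, 13 B and 13 C arrays. The authors deposited 1 linear intensity per probe set and array, all of them whole and none under 10. How probes were summarised and scaled, and the genome build, are not given in the sources used here. Gene symbols came from the platform annotation.

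From these deposited intensities, 32 was added, log2 was taken and arrays of a type were quantile-normalised. Normalised intensities in the text are these values back on the linear scale less 32. Probe sets above the array median on at least 3 arrays were tested with limma 3.58.1 (statmod 1.5.0, R 4.3.3), with a variance trend and a Benjamini-Hochberg adjusted p under 0.05. The 12 sorted samples of arrays A, B and C gave 1 fit, and the 18 samples of array A another, used for unsorted cells. The procedure was tested on simulated data with independent noise in each sample. These data lacked the correlation within experiments described below, so its effect on the calls was not covered. Each array gives 1 value per probe set, so the number of arrays limits the precision. Every deposited column was mapped to a sample (0 were not).

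A gene outside the receptors is represented by its brightest probe set on array A, or else B, or else C. Named were all receptors, the 3 genes most correlated with each, up to 3 called genes per pathway list and comparison, and marker genes of lists that moved with a result. The receptors and lists were chosen with earlier results of these data known.

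Experiment numbers in the titles tie the fractions of a day together. Deviations from the group means correlated within experiments at 0.29 to 0.67 on array A, 0.11 to 0.51 on B and 0.02 to 0.43 on C. Alternatives were pseudocounts of 8 and 128, values as deposited, median scaling, no filter or one at the 75th percentile, no variance trend, only the groups compared, experiment as a fixed or random block, and each sample left out. Added after seeing the data were a variance trend per array type and a block without Exp106.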

Additional observations from a re-analysis of the deposited data

Results flagged for a closer look

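The effect of the GFP sort was called as different between the days for 2 of 17 receptor probe sets, against 0.222% of all. This was a test of the difference itself (limma, adjusted over 22099 probe sets), and the transgene sorted on also changed between the days. Each of the 2 calls was lost in 14 of 25 alternatives. The other tested Egfr probe sets, 101842_g_at and 101840_at, were not called (adjusted p = 0.121 and 0.286). For Egfr 111476_at the log2 difference of GFP-positive minus GFP-negative cells changed by -3.18 from day 7 to day 17 (adjusted p = 0.0424). For Tgfbr2 162600_at it changed by -1.64 (adjusted p = 0.0385). For both probe sets all 3 experiments of day 17 were lower in GFP-positive cells, while 1 of 3 (Egfr) and 1 of 3 (Tgfbr2) were lower at day 7. The other tested Egfr probe sets differed at day 7, with -0.14, -0.01 and -0.13 for 101842_g_at and 0.74, 0.53 and -0.31 for 101840_at.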

How the results depend on the processing

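Of 2395 alternative values of single receptor probe sets, 2317 kept their side of the threshold, 55 lost a call, 23 gained one and 0 called values changed sign. Only the 14 of 118 results called in the main fit could lose a call, and the 2317 include uncalled results that stayed uncalled. The 2395 also include other probe sets of the same gene and a rule of at least 2-fold change. Between the fractions of day 17, where 4 receptor probe sets were called, a filter at the 75th percentile gave 2, as it left Egfr 101840_at and 101842_g_at untested. Only the groups compared gave 0, and the replicate block, fixed or random, 7 each. The share of all probe sets called there moved as well, from 1.28% to 3.21% with the fixed and 4.57% with the random block. Counts under the other alternatives are given without that share, so they do not set a change in the receptors apart from a general shift in calls. For the difference of the fraction effects, with 2 calls, values as deposited gave 1, median scaling, no filter and no variance trend 0 each, the random replicate block and leaving out Exp106, with or without the fixed block, 3 each, and leaving out single samples 0 to 3. From day 7 to day 17, only the groups compared gave 3 in place of 6 in GFP-positive cells and 0 in place of 1 in unsorted cells, where single samples left out gave 0 to 1. In GFP-positive cells the 75th percentile filter left Pdgfrb 160867_at and Egfr 101840_at and 101842_g_at untested, and Fgfr1 97509_f_at gained a call. Without Exp106, 1 in place of 0 was called in GFP-negative cells. For unsorted against sorted cells of day 17, with 1 call, the 75th percentile filter gave 0, as it left Egfr 101840_at untested, and only the groups compared gave 0. There the replicate block (fixed or random) and leaving out Exp106, with or without the fixed block, gave 2 each. Single samples left out gave 0 to 2 there. The replicate block changed no other call among receptors than those given beside the results. The causes were not tested, except that only the groups compared leaves fewer samples and the 75th percentile filter leaves fewer probe sets tested. Of the 24 receptor probe sets, 7 were not above the array median on at least 3 arrays of sorted samples and were not tested.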

Other observations

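Unsorted RNA of Exp106 was also measured on arrays B and C and entered no fit, as the other unsorted samples were on array A. Its normalised intensity was 2297 for Egfr 111476_at, 8159 for Tgfbr1 106644_at and 16264 for Tgfbr2 162600_at. For Egfr and Tgfbr2 this lay above all GFP-positive samples of day 17, and for Tgfbr1 above all 12 sorted samples.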
